A study of Mus musculus with 9 samples.

Results

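The genes described here are 10 regulators of cell survival and death: Bcl2a1b, Bcl2a1d, Bcl2l1 and Mcl1 among the anti-apoptotic members of the Bcl2 family, Bax, Bcl2l11 and Bbc3 among its pro-apoptotic members, the inhibitors of apoptosis (IAP) Birc2 and Birc3, and Cflar. They were taken by gene symbol from the deposited expression table, which held 54532 genes, and all 10 were found there once. RNA-seq was done on RAW264.7, a single mouse macrophage line that the labels describe as wild type and from ascites. The 9 libraries form 3 groups of 3: control without treatment, LPS (1 μg/ml of this Gram-negative outer membrane component for 6 h), and LPS + G-CDs, with the same LPS dose and time plus 400 μg/ml of carbon dots made from Glycyrrhiza. The labels name G-CDs only in the titles of the last group and give LPS as its treatment. No group received G-CDs without LPS. The comparisons ask how LPS moved the survival genes and whether they stood at another level when G-CDs were present.

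Cells die by the mitochondrial route of apoptosis when Bax and its relative Bak1 open the outer mitochondrial membrane and release cytochrome c. Anti-apoptotic proteins such as Bcl-xL (from Bcl2l1), Mcl1 and A1 (from the Bcl2a1 genes) hold Bax and Bak1 back, and BH3-only proteins such as Bim (from Bcl2l11) and Puma (from Bbc3) oppose them. cIAP1 and cIAP2, from Birc2 and Birc3, are ubiquitin ligases of the TNF receptor complex, and c-FLIP, from Cflar, blocks activation of caspase-8 at that complex and at death receptors. Bcl2a1, Bcl2l1, Birc3 and Cflar are known targets of NF-κB, a transcription factor that LPS activates in macrophages.

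The mouse genome holds several near-identical Bcl2a1 genes, so how reads were divided among them bears on the Bcl2a1b and Bcl2a1d values. In GENCODE mouse release M21 transcripts, the coding sequences of Bcl2a1b and Bcl2a1d had the same length of 519 bases and differed at 6 of them (98.84% identity), and Bcl2a1a differed from Bcl2a1d at 7. The first 150 coding bases are shown because they hold 7 of the 12 positions at which any of these copies differ, and capitals mark those positions.
Bcl2a1b: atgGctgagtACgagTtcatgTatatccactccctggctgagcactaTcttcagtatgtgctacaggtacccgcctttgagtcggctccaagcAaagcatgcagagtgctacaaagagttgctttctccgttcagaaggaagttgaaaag
Bcl2a1d: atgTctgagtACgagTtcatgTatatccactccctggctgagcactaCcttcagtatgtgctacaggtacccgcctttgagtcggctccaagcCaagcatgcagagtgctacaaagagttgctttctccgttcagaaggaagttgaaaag
Bcl2a1a: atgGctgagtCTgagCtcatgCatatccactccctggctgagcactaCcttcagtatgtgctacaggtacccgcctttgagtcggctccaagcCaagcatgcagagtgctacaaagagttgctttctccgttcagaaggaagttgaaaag
The longest stretch without a difference was 217 bases between Bcl2a1b and Bcl2a1d. When each gene's longest transcript was cut into words of 50 bases, 79.2% of them for Bcl2a1b and 79.5% for Bcl2a1d also occurred in transcripts of other genes. These were mainly each other, Bcl2a1a and Gm29094. The share was 13.8% for Bax, 11.6% for Cflar, 7.34% for Birc3 and 2.07% for Birc2, and 0 for Bcl2l1, Mcl1 and Bbc3. The values of Bcl2a1b and Bcl2a1d are therefore uncertain as separate genes, and their sum with the other Bcl2a1 genes is given as well. Bcl2a1b also overlaps Gm29094, which is not in that sum, and Bax overlaps Gm45808, which holds its shared words, each on the same strand. Bcl2a1d overlaps the antisense gene Gm10634. Each of these overlapping genes was listed at a mean under 1 FPKM in every group.

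Promoter sequence was searched for letters shared by many NF-κB sites, GGGNNTTCC and GGGNNTTTC, on both strands. The windows were those of RefSeq on GRCm38.p6, from 250 bases before to 50 bases after a transcription start, with 16 windows for the 10 genes. At least 1 of these letter patterns was in a window of 4 of the 10 genes, beside 10.8% of all genes with a window, and in 4 of their 16 windows, beside 9.53% of all 32851 windows. These stretches show the matches in capitals with 20 bases on either side.
Bcl2l1, chr2:152830811-152830954, minus strand: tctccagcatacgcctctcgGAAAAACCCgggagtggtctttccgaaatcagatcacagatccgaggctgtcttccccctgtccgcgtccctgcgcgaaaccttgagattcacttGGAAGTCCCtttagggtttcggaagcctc
Mcl1, chr3:95658674-95658722, plus strand: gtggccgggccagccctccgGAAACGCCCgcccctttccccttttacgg
Bbc3, chr7:16309427-16309476, plus strand: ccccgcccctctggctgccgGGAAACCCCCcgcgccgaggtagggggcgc
Birc2, chr9:7837259-7837307, minus strand: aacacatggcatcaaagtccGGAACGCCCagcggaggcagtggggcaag
Each match read as the reverse complement of a pattern on the strand printed, and in Bbc3 both patterns matched in overlapping letters. TGACNNNGC, the core of the antioxidant response element, was in 1 Bcl2l1 window and in 12.4% of all windows. Neither NF-κB pattern was in a window of Bcl2a1b, Bcl2a1d, Bcl2l11, Bax, Birc3 or Cflar, which says only that these letters are not in the windows. The matches are descriptions and not measured binding.

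Each library held between 14752400 and 17312255 reads on genes, as recovered from FPKM (reads of a gene corrected for its length and for a library size). That size was 1.11 to 1.14 times the reads on genes in control libraries, 0.929 to 0.936 times with LPS and 0.88 to 0.98 times with LPS + G-CDs. The FPKM scale thus differed between groups beyond the reads on genes, which bears on small differences, and the reason was not tested. A Bcl2a1d value in an LPS library rested on 4513 to 4917 reads. The fewest reads behind a value of the 10 genes were 78, for Bcl2a1b in control replicate 1. All 8 macrophage markers checked (Cd68, Lyz2, Csf1r, Adgre1, Itgam, Spi1, Cd14 and Fcgr1) reached 1 FPKM in at least 3 libraries, and none of the T and NK cell, B cell, fibroblast and epithelial or granulocyte markers did. Replicates agreed less in the control and LPS + G-CDs groups than in the LPS group, with a median replicate SD of 0.244, 0.259 and 0.0867 on the log2 scale. Control replicate 1 stood apart in the 13 protein-coding mitochondrial genes, with a summed level of 1725 FPKM against 14320 and 13270 in the other control libraries. Nothing in the labels says that replicates were separate cultures, so the p-values measure only the spread between these libraries. That spread was estimated for each gene over all 3 groups, so the interval and p-value of a comparison also reflect the group outside it. In bulk RNA, fewer cells of a type and less RNA per cell cannot be told apart.

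Most of the survival genes and both BH3-only genes were higher with LPS. Relative to control, 8 of the 10 genes rose at a Benjamini-Hochberg adjusted p under 0.05 (limma, over 11585 genes), none fell, and Mcl1 and Bax did not pass the test. Of all tested genes, 31.3% were called in this comparison, 15.8% higher and 15.6% lower. The same 8 genes had every LPS library above every control library, which held for 27.4% of all tested genes. The median difference of the 10 genes was 2.15 in log2(FPKM + 1), beside 0.02 over all tested genes. With the added 1, this scale shrinks differences of genes at low FPKM. When FPKM was rescaled to TPM (FPKM brought to the same sum in every library), the median over all genes moved to -0.23, the called genes split into 1003 higher and 3059 lower in place of 1827 and 1803, and 7 of the 10 genes were called higher, without Birc2. Without control replicate 1, 9 of the 10 genes were called higher, with Mcl1.

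**Figure D1:**
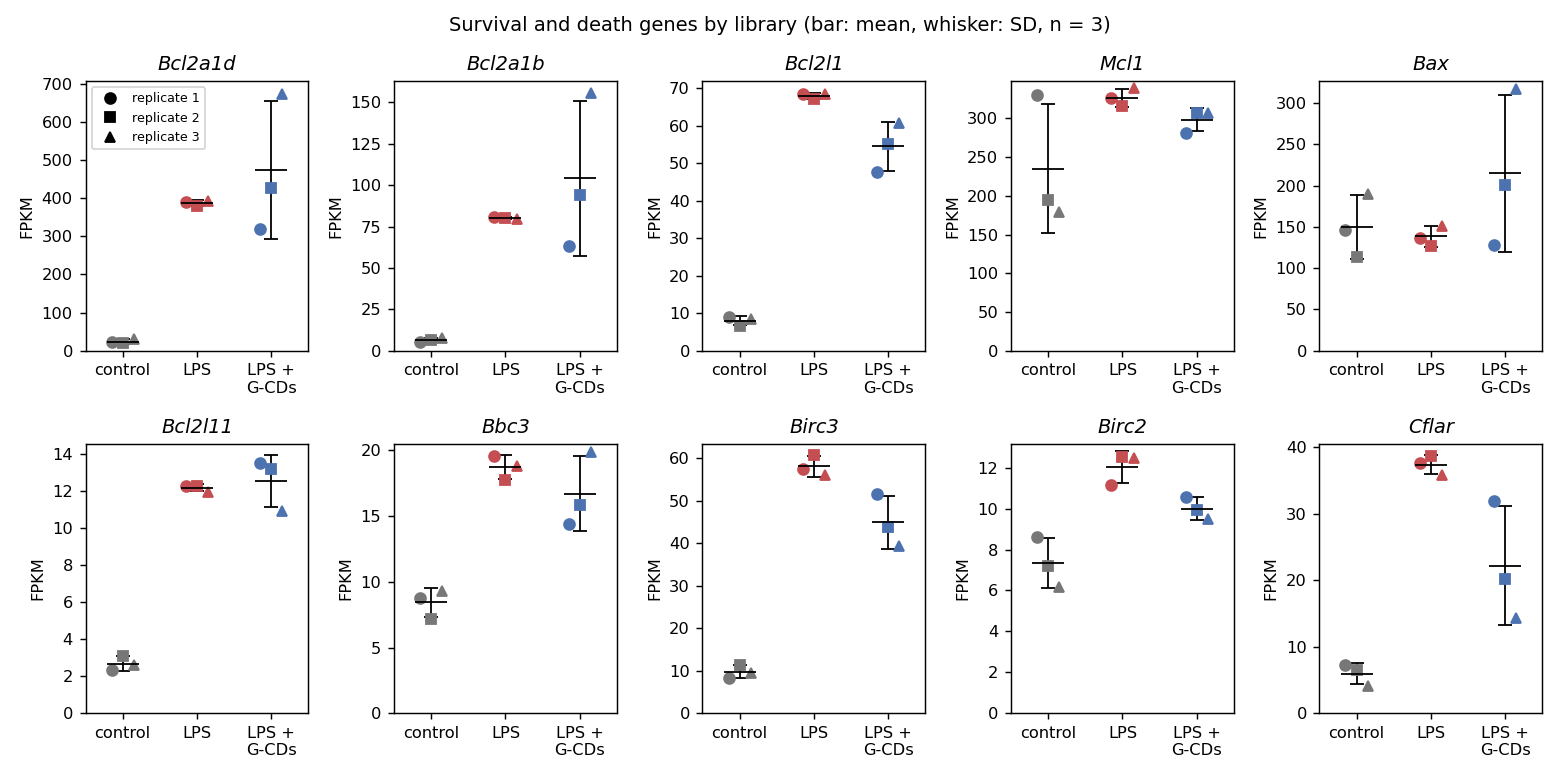
FPKM of each gene in the 9 libraries, by group, with the replicate number as the symbol, the mean as a bar and the SD as a whisker (n = 3). In 8 panels the LPS libraries sit above the control libraries, Mcl1 and Bax being the others, and the LPS + G-CDs libraries of Bcl2a1d spread from 320.6 to 674.7.

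Among the anti-apoptotic genes, the Bcl2a1 copies showed the largest differences. Bcl2a1d (chr9:88723285-88731914, minus strand, GRCm38, as are the other gene positions) was at 22.9, 19.3 and 30.3 FPKM in control libraries, at 390.4, 378.8 and 391.9 with LPS, and at 320.6, 427.6 and 674.7 with LPS + G-CDs. Every LPS library lay far above every control library, whereas the LPS + G-CDs libraries lay on either side of the LPS libraries. Mean FPKM rose 16.0-fold with LPS, from 24.1 ± 5.60 to 387.04 ± 7.20 (SD, n = 3), a log2 difference of 3.97 (SE 0.27, limma adjusted p = 7.7e-06). Bcl2a1b (chr9:89199209-89207827, plus strand) was at 5.09, 6.61 and 7.70 FPKM in control, at 80.8, 79.97 and 79.7 with LPS, and at 63.4, 93.8 and 155.4 with LPS + G-CDs. Its LPS + G-CDs libraries were ordered as those of Bcl2a1d, with replicate 3 highest and replicate 1 lowest. It rose 12.4-fold with LPS, by 3.46 on the log2 scale (SE 0.28, limma adjusted p = 2.7e-05).

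If each shared read was counted once, the sum over the Bcl2a1 genes does not depend on how reads were divided among copies of like length. How shared reads were counted is not given. The summed level was 30.8 ± 6.44 FPKM in control, 492.9 ± 6.24 with LPS and 602.8 ± 239.6 with LPS + G-CDs (SD, n = 3). The sum rose by 3.98 on the log2 scale with LPS (SE 0.27, limma adjusted p = 8.0e-06). Bcl2a1d held between 74.0% and 81.3% of the sum in every library and Bcl2a1b between 15.9% and 25.4%. Bcl2a1a (chr9:88956900-88962419, plus strand) held 0.36% to 0.69% of the sum in control libraries, where it rested on 3, 2 and 2 reads, and 4.99% to 5.55% with LPS, where it rested on 286, 305 and 295. The promoter window of Bcl2a1b matched that of Bcl2a1a at 254 of 256 aligned bases (99.22%), and that of Bcl2a1d at 247 of 250 (98.8%) with 1 gap of 6 bases.

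**Figure D2:**
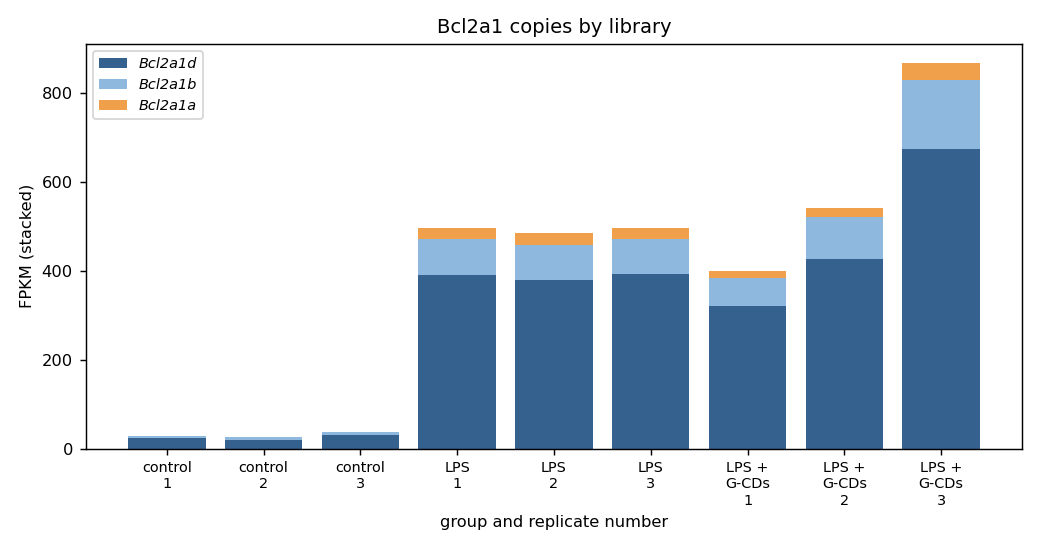
Stacked FPKM of Bcl2a1d, Bcl2a1b and Bcl2a1a in each of the 9 libraries, by group and replicate number. The control sums lie between 26.0 and 38.1, the LPS sums between 485.7 and 496.6, and the LPS + G-CDs sums between 399.9 and 867.2.

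Bcl2l1 (chr2:152780668-152831728, minus strand), which encodes Bcl-xL, was at 8.99, 6.62 and 8.45 FPKM in control, at 68.4, 67.1 and 68.6 with LPS, and at 47.7, 55.0 and 60.8 with LPS + G-CDs. The groups did not overlap, and the LPS + G-CDs libraries lay between the others. With LPS it rose 8.48-fold in mean FPKM, by 2.95 on the log2 scale (SE 0.14, limma adjusted p = 8.7e-07).

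Mcl1 (chr3:95658788-95663176, plus strand), which encodes a short-lived anti-apoptotic protein, was at 330.5, 194.3 and 179.5 FPKM in control, at 325.7, 315.9 and 338.8 with LPS, and at 281.3, 306.4 and 307.4 with LPS + G-CDs. Control replicate 1, the library with low mitochondrial transcripts, lay within the LPS range, and the other control libraries lay below every treated library. The LPS difference was 0.53 on the log2 scale (95% confidence interval 0.02 to 1.04) and did not pass (limma adjusted p = 0.1). Without control replicate 1 it was 0.80 and passed (limma adjusted p = 0.00225). The part of that library in the Mcl1 result was not tested further. In control libraries Mcl1 had the highest mean level per length of the 10 genes, followed by Bax, with overlapping libraries. With LPS, Bcl2a1d stood above Mcl1 without overlap.

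Of the pro-apoptotic genes, the BH3-only genes rose and the effector did not pass. Bcl2l11 (chr2:128126038-128162547, plus strand), which encodes Bim, was at 2.34, 3.13 and 2.60 FPKM in control, at 12.3, 12.3 and 11.98 with LPS, and at 13.6, 13.2 and 10.9 with LPS + G-CDs. Treated libraries lay above control libraries in each case, and the LPS + G-CDs libraries surrounded the LPS libraries. Bcl2l11 rose 4.54-fold with LPS, by 1.84 on the log2 scale (SE 0.12, limma adjusted p = 7.7e-06). Bbc3 (chr7:16308393-16318205, plus strand), which encodes Puma, a target of p53, was at 8.81, 7.19 and 9.33 FPKM in control, at 19.6, 17.8 and 18.8 with LPS, and at 14.4, 15.8 and 19.9 with LPS + G-CDs. It rose 2.22-fold with LPS, by 1.07 on the log2 scale (SE 0.15, limma adjusted p = 0.00059), with no overlap between control and treated libraries.

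Bax (chr7:45461697-45466898, minus strand), the pore-forming effector, was at 145.9, 113.4 and 190.1 FPKM in control, at 136.9, 126.9 and 151.3 with LPS, and at 127.7, 200.4 and 316.4 with LPS + G-CDs. The LPS libraries lay within the control range, and LPS + G-CDs replicates 2 and 3 lay above every other library. The LPS difference was -0.09 on the log2 scale (95% confidence interval -0.80 to 0.63, limma adjusted p = 0.86), and its sign turned after removal of a gene-length trend and without control replicate 3. Within the LPS group the levels were ordered Bcl2a1d, Mcl1, Bax, Bcl2a1b, Bcl2l1, Birc3, Cflar, Bbc3, Bcl2l11 and Birc2, from 387.04 to 12.04 FPKM, and only the last pair of neighbours overlapped. In control, Birc3, Bbc3, Bcl2l1, Birc2, Bcl2a1b and Cflar had means between 9.84 and 5.95 FPKM with overlapping neighbours, and Bcl2l11 was lowest at 2.69 ± 0.40 FPKM (SD, n = 3).

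The IAP genes lie next to each other on chromosome 9 and differed in the size of their rise. Birc3 (chr9:7848699-7873186, minus strand) was at 8.44, 11.5 and 9.59 FPKM in control, at 57.4, 60.8 and 56.1 with LPS, and at 51.7, 43.9 and 39.3 with LPS + G-CDs. The groups did not overlap. It rose 5.90-fold with LPS, by 2.46 on the log2 scale (SE 0.15, limma adjusted p = 3.5e-06). Birc2 (chr9:7818227-7837064, minus strand) was at 8.60, 7.19 and 6.18 FPKM in control, at 11.1, 12.5 and 12.5 with LPS, and at 10.6, 9.91 and 9.47 with LPS + G-CDs. These groups did not overlap either, although the distances were small. Birc2 rose 1.64-fold with LPS, by 0.66 on the log2 scale (SE 0.13, limma adjusted p = 0.0046), and on TPM the difference was 0.44 and did not pass (limma adjusted p = 0.134).

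Cflar (chr1:58711508-58758884, plus strand), the caspase-8 inhibitor of the death receptor complex, was at 7.21, 6.46 and 4.17 FPKM in control, at 37.7, 38.6 and 35.9 with LPS, and at 32.0, 20.3 and 14.4 with LPS + G-CDs. The LPS + G-CDs libraries lay between the control and LPS libraries, and replicate 3 was lowest in each group. Cflar rose 6.29-fold with LPS, by 2.49 on the log2 scale (SE 0.27, limma adjusted p = 0.00016). At 12669 bases in the table it was the longest of the 10 genes, and Bcl2a1b, at 817 bases, the shortest.

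The comparison of LPS + G-CDs with LPS asks whether the survival genes stood at another level when G-CDs were present. None of the 10 genes passed at an adjusted p under 0.05 in limma, where 0.492% of all tested genes were called. At an unadjusted p under 0.05, 3 of the 10 genes passed (Bcl2l1, Birc3 and Cflar), and 1765 of the 11585 tested genes did. In 5 of the 10 genes, Bcl2l1, Mcl1, Birc2, Birc3 and Cflar, every LPS + G-CDs library lay below every LPS library, which held for 15% of all tested genes. None of the 10 lay above without overlap, which 12.9% of all tested genes did. The median difference of the 10 genes was -0.15, beside 0.02 over all tested genes.

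The largest difference was that of Cflar, at -0.80 on the log2 scale (95% confidence interval -1.41 to -0.18, limma adjusted p = 0.28). The mean of Cflar was 0.594 times that of the LPS group. Without LPS + G-CDs replicate 1 the difference was -1.09 and passed (limma adjusted p = 0.0489), and without replicate 3 it was -0.54 (limma adjusted p = 0.668). Birc3 differed by -0.37 (95% confidence interval -0.70 to -0.04, limma adjusted p = 0.32) and Birc2 by -0.25 (95% confidence interval -0.54 to 0.05, limma adjusted p = 0.34). Both IAP intervals ended near 0, and that of Birc2 included it.

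Bcl2l1 differed by -0.32 (95% confidence interval -0.64 to -0.0031, limma adjusted p = 0.32) and Mcl1 by -0.13 (95% confidence interval -0.64 to 0.37, limma adjusted p = 0.73). The Mcl1 interval also holds the spread of the control libraries, with an SD of 83.2 FPKM, beside 11.5 with LPS and 14.8 with LPS + G-CDs. For Bcl2a1d the difference was 0.22 (95% confidence interval -0.38 to 0.83, limma adjusted p = 0.61) and for Bcl2a1b 0.28 (95% confidence interval -0.37 to 0.93, limma adjusted p = 0.56). The sum of the Bcl2a1 genes differed by 0.22 (limma adjusted p = 0.63) and its sign turned without LPS + G-CDs replicate 3 (-0.08), with quantile scaling (-0.12) and after removal of the length trend described below (-0.022). Among the pro-apoptotic genes, Bax differed by 0.54 (95% confidence interval -0.18 to 1.25, limma adjusted p = 0.36), Bbc3 by -0.17 (95% confidence interval -0.50 to 0.16, limma adjusted p = 0.49) and Bcl2l11 by 0.03 (95% confidence interval -0.25 to 0.32, limma adjusted p = 0.88). The Bax difference was 0.21 without LPS + G-CDs replicate 3 (limma adjusted p = 0.87) and 0.86 without replicate 1 (limma adjusted p = 0.0699), and that of Bbc3 was -0.29 and -0.073 without the same libraries. The direction of Bcl2l11 turned on TPM and without LPS + G-CDs replicate 1 or 2.

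**Figure D3:**
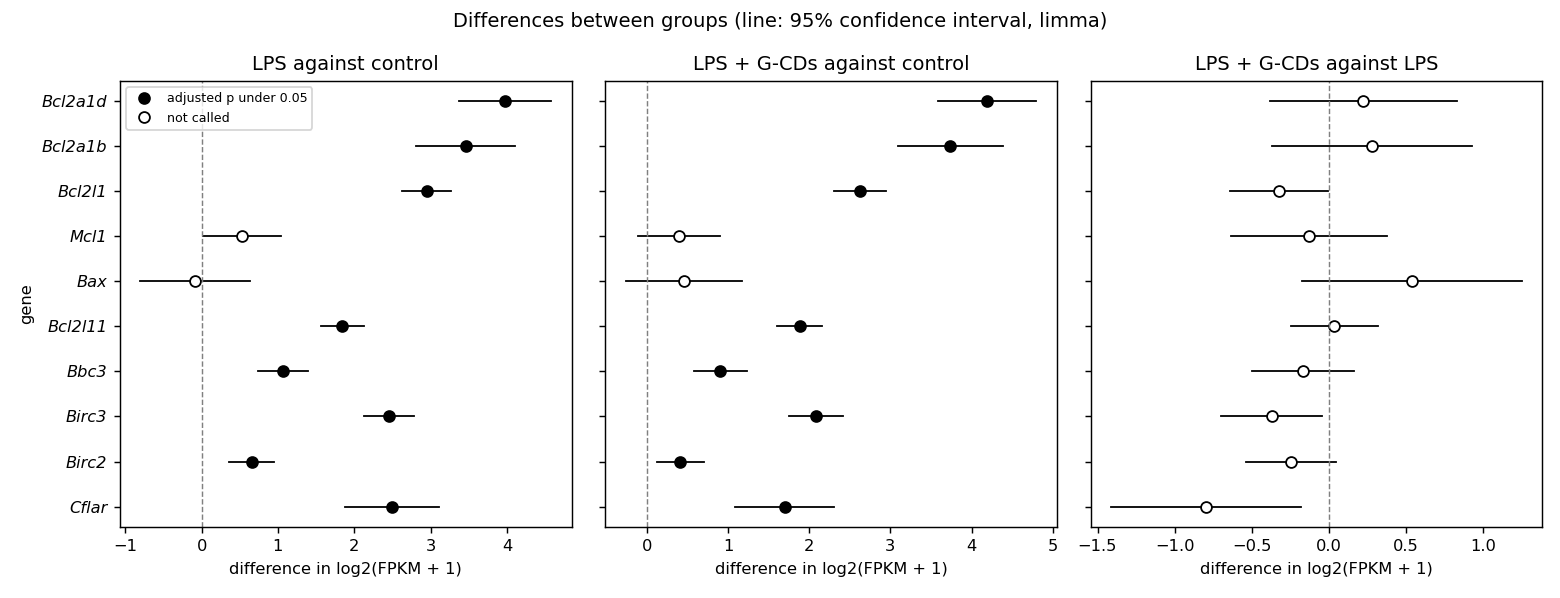
Difference in log2(FPKM + 1) of each gene in the 3 comparisons, with the 95% confidence interval as a line and filled points for an adjusted p under 0.05. Against control, 8 points are filled in each panel, and none is filled for LPS + G-CDs against LPS, where the values run from -0.80 (Cflar) to 0.54 (Bax).

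Values in LPS + G-CDs replicates 2 and 3 and in control replicate 3 moved with gene length, beside the results for the shortest and longest genes. Over all tested genes, a smooth trend of the distance from the LPS mean was 0.54 at the length of Bcl2a1b and -0.65 at that of Cflar in replicate 3, 0.20 and -0.34 in replicate 2, and -0.04 and 0.01 in replicate 1. The same trend was 0.25 and -0.49 in control replicate 3, wider than in LPS + G-CDs replicate 2, and between -0.10 and -0.02 at these lengths in the other control libraries. Bcl2a1b itself stood at 0.95, 0.22 and -0.33 from the LPS mean in replicates 3, 2 and 1, and Cflar at -1.32, -0.85 and -0.22. Bax, with 1576 bases, stood at 1.19 in replicate 3, where the trend was 0.53. These 3 genes and the trend thus had the same order of replicates. In replicates 2 and 3 all 3 genes stood farther from the LPS mean than the trend did, Bcl2a1b only narrowly in replicate 2. After the trend was removed, Cflar differed between LPS + G-CDs and LPS by -0.47 (limma adjusted p = 0.156), Bax by 0.29 (limma adjusted p = 0.436) and Bcl2a1d by -0.01 (limma adjusted p = 0.96). Birc3, with 5009 bases, differed by -0.34 and Bcl2l1, with 4586 bases, by -0.31, where the trend lay between -0.08 and 0.01 in all 3 replicates.

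**Figure D4:**
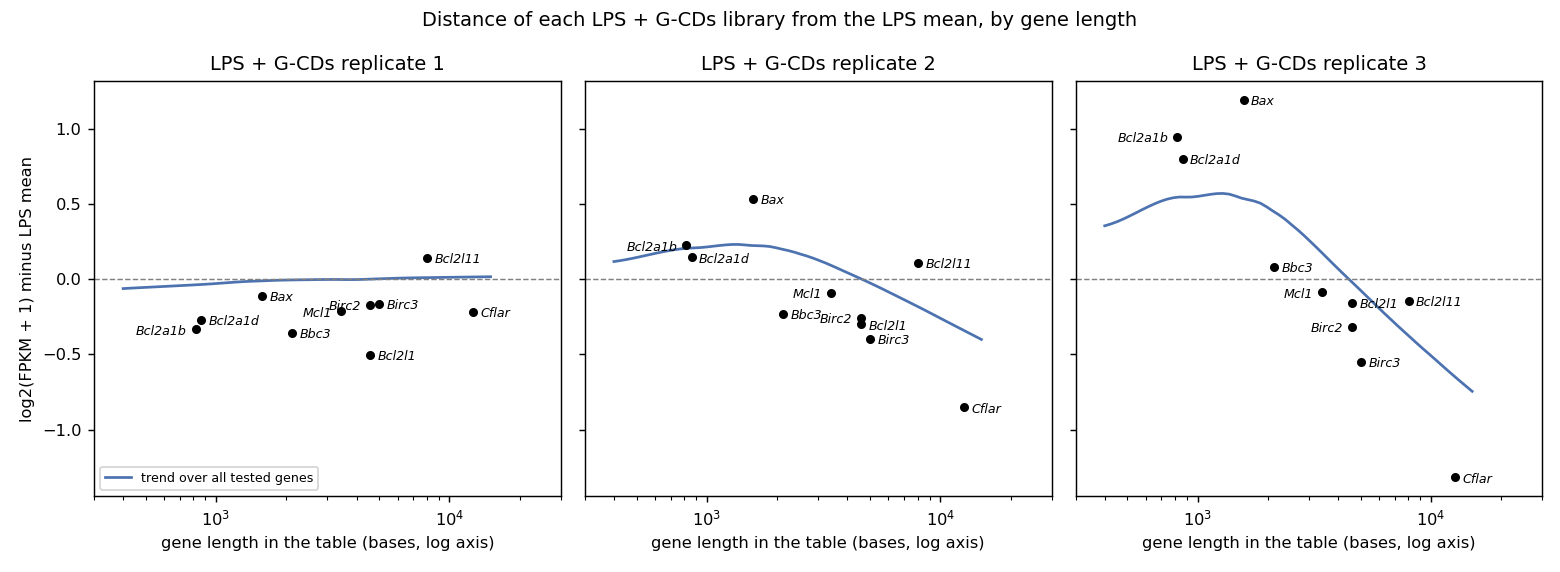
Distance of each LPS + G-CDs library from the LPS mean in log2(FPKM + 1) (y axis) against gene length (x axis, log scale), with the 10 genes as points and the smooth trend over all tested genes as a line. The line is flat in replicate 1 and falls in replicate 3 from 0.54 at Bcl2a1b to -0.65 at Cflar.

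Relative to control, cells given LPS + G-CDs showed 8 of the 10 genes higher at an adjusted p under 0.05 in limma and none lower. Of all tested genes 25.3% were called, 12.8% higher and 12.4% lower, and on TPM the called genes split into 761 higher and 3218 lower in place of 1488 and 1439. The genes called were those of LPS against control, and both comparisons use the same control libraries. Bcl2a1d rose by 4.195 on the log2 scale (limma adjusted p = 6.3e-06), Bcl2a1b by 3.74 (limma adjusted p = 2e-05), Bcl2l1 by 2.63 (limma adjusted p = 2e-06) and Birc3 by 2.08 (limma adjusted p = 1.2e-05). Bcl2l11, Cflar and Bbc3 rose by 1.88, 1.70 and 0.90. Birc2 rose by 0.41 (limma adjusted p = 0.047), and this call was lost in 14 of 20 alternatives, including TPM, where the difference was 0.02. Mcl1 differed by 0.40 (limma adjusted p = 0.24), and by 0.67 without control replicate 1, where it passed (limma adjusted p = 0.00633). Bax differed by 0.45 (95% confidence interval -0.26 to 1.17, limma adjusted p = 0.34), by 0.13 without LPS + G-CDs replicate 3, by 0.78 without LPS + G-CDs replicate 1 and by 0.27 without control replicate 2.

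Of the other Bcl2 family genes, 14 were tested, and with LPS 3 rose and 2 fell. This was 35.7% called, near the 31.3% of all tested genes. Of 5 other anti-apoptotic genes listed 3 were tested, and with LPS Bcl2a1a and Bcl2l2 rose and Bcl2, the founding member of the family, fell. Bcl2 had a mean of 1.27 FPKM in control and 0.63 with LPS, a difference of -0.47 on the log2 scale (limma adjusted p = 0.029). Bcl2l2, which encodes Bcl-w, rose by 0.63 (limma adjusted p = 0.0084). Of 4 tested effectors and multidomain genes Bcl2l15 rose, by 0.86 (limma adjusted p = 0.01), and Bak1, the partner of Bax, was at a mean of 54.5 FPKM in control and 48.4 with LPS (limma adjusted p = 0.88). Of 7 tested BH3-only and related genes none rose and Bid, which links death receptors to mitochondria, fell by 0.53 (limma adjusted p = 0.0073). The median difference of that list was -0.26, beside 1.84 for Bcl2l11 and 1.07 for Bbc3.

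Among 6 other IAP genes tested, 2 rose and 1 fell with LPS, and among 4 IAP antagonists 1 rose and 1 fell, beside 15.8% higher and 15.6% lower over all tested genes. Xiap, a direct caspase inhibitor, rose by 1.20 with LPS (limma adjusted p = 0.011), from a mean of 9.46 to 22.7 FPKM. Naip2, an inflammasome sensor, rose by 0.60 (limma adjusted p = 0.02) and Birc5, which encodes survivin and acts in cell division, fell by 1.17 (limma adjusted p = 0.01). Of the antagonists, Xaf1, an interferon-induced gene, rose by 2.75 (limma adjusted p = 5.5e-06) and Htra2, a mitochondrial protease, fell by 0.51 (limma adjusted p = 0.023). Among caspase and apoptosome genes, Endog and Dffb, which encode nucleases, fell by 1.42 and 0.58 with LPS at an adjusted p under 0.05 in limma. Casp8, the initiator that c-FLIP blocks, rose by 0.49 (limma adjusted p = 0.0098).

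Of 15 death receptor complex genes, 5 rose and 2 fell with LPS, where 15.8% of all tested genes rose and 15.6% fell. Tnfrsf1b, TNF receptor 2, rose from a mean of 4.21 to 144.7 FPKM, by 4.81 on the log2 scale (limma adjusted p = 2.6e-08). Fas, a death receptor, was at a mean of 0.21 FPKM in control and 9.63 with LPS. Mlkl, the effector of necroptosis, rose by 1.20 (limma adjusted p = 6.6e-05), Tnfrsf10b, a TRAIL receptor, by 0.70 (limma adjusted p = 0.0064), and Fadd, the adaptor between receptor and caspase-8, fell. No gene of any of these lists passed in LPS + G-CDs against LPS. Of the 15, 10 differed upward and 5 downward there, with Tnfrsf1b at -0.71 (limma adjusted p = 0.066) and Mlkl at 0.54 (limma adjusted p = 0.11). In LPS + G-CDs against control 6 of the 15 rose and 1 fell, beside 12.8% and 12.4% of all tested genes. Ripk3, the kinase that activates Mlkl, rose in that comparison by 0.84 (limma adjusted p = 0.0055), and it differed by 0.45 in LPS against control (limma adjusted p = 0.07) and by 0.40 in LPS + G-CDs against LPS (limma adjusted p = 0.32).

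Patterns most like those of the 10 genes were found by the root mean square difference over the 9 libraries in log2(FPKM + 1), each gene set to its own control mean. The nearest tested genes were Rel (0.107) and Dusp16 for Cflar, Lcp2 (0.0878) and Plekho2 for Birc3, Grap (0.145) and Junb for Bcl2l1, and Gadd45b (0.163) and Usp18 for Bcl2a1d. Gstt4 (0.184) and Traf1 were nearest to Bcl2a1b, Trim34b (0.0995) and Kctd12 to Bcl2l11, and St3gal3 (0.0922) and Zfp513 to Bbc3. For the genes with small differences they were Tlnrd1 (0.101) and Gm9118 for Mcl1, Ddx5 (0.0607) and Ppp4r1 for Birc2, and Rps9 (0.0554) and Fkbp11 for Bax. The points share their libraries and the length trend described above.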

How the data were processed

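RNA-seq was performed on 9 RAW264.7 libraries in 3 groups of 3. The authors deposited FPKM per gene and library with gene coordinates and lengths. The processing notes of the submitters name GRCm38 and mm10, and the aligner and the counting method are not given in the sources used here. FPKM multiplied by gene length gave whole reads, to within 0.05 reads, and the depth above. The reads were used for depth and in an alternative with limma's voom, and the main test kept the FPKM scale.

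The 11585 genes that reached 1 FPKM in 3 or more libraries were transformed as log2(FPKM + 1) and fitted with limma 3.58.1 in R 4.3.3, with an intensity trend in eBayes, in 1 model of the 9 libraries. Tests were two-sided with Benjamini-Hochberg adjustment over all tested genes, and a gene was called at an adjusted p under 0.05. The fit was tested on simulated data with the same spread in all groups and no length trend. That test therefore does not cover the unequal spread and the length trend of these libraries. For the Bcl2a1 sum, FPKM of all genes whose symbol starts with Bcl2a1 were added before the fit. Part of the caspase and apoptosome list is not reported here. The 10 genes and the gene lists were chosen with earlier results of these data known. Beyond the 10, genes were named if called in at least 1 comparison and among the 4 largest differences of their list, or if nearest in pattern. Bak1, Trp53, Casp8, Fadd, Ripk3, Bcl2a1a, Gm29094, Gm10634 and Gm45808 were named beside their group after their values were seen where that rule did not name them. Tables and figures were made with Python 3.11.15, pandas 2.3.3, matplotlib 3.10.9 and Biopython 1.88 (gapped alignment of the Bcl2a1 promoter windows).

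To check whether replicate numbers pair libraries, each library's deviation from its group mean was correlated with that of the same number in another group. Between control and LPS this gave 0.103, 0.137 and 0.113, each above 0.1, beside -0.127 to -0.0139 for different numbers. The numbers were taken to pair those libraries, although these values are small and the labels do not say what a number stands for. The main fit had no replicate term, so its p-values do not use a pairing, and an alternative had a replicate block. The correlations were 0.28, 0.0575 and 0.653 between control and LPS + G-CDs, where different numbers gave -0.671 to 0.504. Between LPS and LPS + G-CDs they were 0.095, 0.0801 and 0.143, where different numbers gave -0.164 to 0.068. The alternatives were a pseudocount of 0.1, no filter and a stricter one (mean FPKM of at least 5), scaling to TPM, by quantiles or by median of ratios, a fit of only the 6 libraries compared, eBayes without trend, a replicate block, voom, removal of the gene-length trend and each library left out in turn.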

Additional observations from a re-analysis of the deposited data

How the results depend on the processing

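The 8 genes that rose with LPS kept their direction in all 20 alternatives and their call in all 20 except Birc2, which lost it on TPM. The number of genes called in LPS against control was 3630, and 2412 with the stricter filter, which tests fewer genes. In LPS + G-CDs against LPS it was 57, and 25 with a pseudocount of 0.1, 27 on TPM, 25 with the 6 libraries alone and 89 after the length trend was removed. It ran from 10 to 276 with 1 library left out, highest without LPS + G-CDs replicate 1 and at 10 to 29 without control replicate 2, any LPS replicate or LPS + G-CDs replicate 2 or 3. Against control it was 2927, 1811 with the 6 libraries alone, and 1916 to 3247 with 1 library left out, lowest without LPS + G-CDs replicate 2. Of the 10 genes, 0 to 1 were called in LPS + G-CDs against LPS with 1 library left out. With a replicate block, 8, 0 and 7 of the 10 genes were called in LPS against control, LPS + G-CDs against LPS and LPS + G-CDs against control, beside 4104, 53 and 3347 of the 11585 tested genes, and the block changed no call of the 10 genes but that of Birc2 in the last (limma adjusted p = 0.0527).

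Directions turned only for differences that had not passed. Bax in LPS against control was 0.051 after the length trend was removed and -0.27 to 0.10 with 1 library left out. In LPS + G-CDs against LPS, after the trend was removed and with quantile scaling, Bcl2a1d was -0.015 and -0.038 and the Bcl2a1 sum -0.022 and -0.12, and Bcl2l11 was -0.13 on TPM. With 1 library left out, Bcl2a1d ran from -0.064 to 0.47, Bcl2a1b from -0.055 to 0.59, the sum from -0.083 to 0.47 and Bcl2l11 from -0.019 to 0.12. In LPS + G-CDs against control, Mcl1 was -0.039 on TPM and -0.15 with quantile scaling, and Bax -0.024 with quantile scaling. The causes were not tested.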

Other observations

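Genes of the p53 and FoxO axis and of Mcl1 turnover were measured in the same fit. Of 10 tested p53 and FoxO axis genes, 4 rose and 1 fell with LPS at an adjusted p under 0.05 in limma, beside 15.8% and 15.6% of all tested genes. Sesn2, a stress-induced metabolic regulator, rose by 1.96 on the log2 scale (limma adjusted p = 3.4e-06), Cdkn1a, which encodes the cell cycle inhibitor p21, by 1.56 (limma adjusted p = 3.7e-05), and Mdm2, the ubiquitin ligase of p53, by 0.85 (limma adjusted p = 0.0013). Phlda3, which opposes Akt, fell by 1.503 (limma adjusted p = 0.0019). Trp53 itself was at a mean of 54.9 FPKM in control and 67.6 with LPS (limma adjusted p = 0.26). Of 6 Mcl1 turnover genes, 2 rose and none fell, beside the same shares. Ier3, an early response gene, rose by 3.63 (limma adjusted p = 2e-06), from a mean of 85.9 to 1062 FPKM, and Trib1, a pseudokinase, rose by 1.21 (limma adjusted p = 0.00013). With LPS + G-CDs, Ier3 was at a mean of 1752 FPKM, with every library above the LPS libraries, and its difference from LPS of 0.71 did not pass (limma adjusted p = 0.21). No gene of these lists passed in LPS + G-CDs against LPS.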
